A study of Mus musculus with 48 samples.

Results

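Glutathione transferases of the alpha, mu, pi and theta classes were followed in the livers of DCA-exposed mice. The genes were taken by symbol from the deposited tables. No measured value entered this rule, but the genes were chosen with earlier results of these data known. All 10 (Gsta1, Gsta2, Gsta3, Gsta4, Gstm1, Gstm2, Gstm3, Gstp1, Gstt1 and Gstt2) were among the 11275 genes of the frozen (FROZ) table. The formalin-fixed paraffin-embedded (FFPE) table of 6673 genes listed 9 of them and did not list Gsta4.

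Male B6C3F1 mice, 4 weeks old, drank water with dichloroacetic acid (DCA) for 6 days. With 6 animals per dose, the vehicle group had no DCA, and the others had 1.0 g/L (an intake of 198 mg/kg-d), 2.0 g/L (313 mg/kg-d) or 3.5 g/L (427 mg/kg-d). Each of the 24 animals gave 1 FROZ and 1 FFPE library, measured by TempO-Seq, which counts a ligated pair of short probes per target transcript. FROZ RNA was extracted from frozen tissue and FFPE lysate was made from sections, and the lobes sampled are described differently for each, so lobe and preservation cannot be told apart. The mice carried no transgene and vehicle animals received water without DCA.

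Glutathione transferases join the tripeptide glutathione to electrophilic compounds, which makes these more soluble and ready for export from the hepatocyte. The alpha, mu, pi and theta classes are cytosolic enzymes with overlapping substrates, and several are abundant hepatocyte proteins. Many members are known to be inducible through antioxidant response elements bound by the transcription factor Nrf2, and others are known for their sex-dependent or zonal expression in mouse liver. DCA itself is metabolised by a zeta class transferase, which is not one of the 10 genes.

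The alpha genes Gsta4 (chr9:78182774-78209349, plus strand), Gsta1 (chr9:78230656-78242684, plus strand) and Gsta2 (chr9:78331018-78355788, minus strand) lie in 1 region in the GENCODE annotation of GRCm38, the assembly also called mm10, with Gm3776 between Gsta1 and Gsta2. Gsta3 lies apart at chr1:21240589-21265661 on the plus strand. The mu genes lie near each other on the minus strand, Gstm3 at chr3:107963696-107969283, Gstm2 at chr3:107981702-107986453 and Gstm1 at chr3:108012255-108017973. Gstp1 is at chr19:4035407-4037985, and the theta genes Gstt1 and Gstt2 are at chr10:75783813-75798584 and chr10:75831114-75837424, all on the minus strand.

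RefSeq promoter windows on GRCm38.p6 were found for 8 of the 10 genes. Shown are Gsta1 and Gsta2, the pair with the largest responses in FROZ liver, Gsta3, an alpha gene that did not pass at any dose, and Gstp1, the gene that fell. Windows hold 250 bases before the RefSeq start of Gsta1 (chr9:78230419-78230668, plus strand), Gsta2 (chr9:78347146-78347395, minus strand) and Gsta3 (chr1:21240335-21240584, plus strand). That of Gstp1 runs from base 250 to base 68 before its start (chr19:4037980-4038162, minus strand). Annotated exons cover 13 bases of the Gsta1 window, 23 of Gsta2, 0 of Gsta3 and 6 of the printed Gstp1 stretch. The Gsta2 window lies within the GENCODE span of the gene, so its RefSeq start is not the outermost annotated start. Capitals in Gsta1 and Gsta2 mark their longest identical run of 29 bases, capitals in Gsta3 the antioxidant response element core TGACNNNGC, and capitals in Gstp1 the AP-1 site TGAGTCA.
Gsta1: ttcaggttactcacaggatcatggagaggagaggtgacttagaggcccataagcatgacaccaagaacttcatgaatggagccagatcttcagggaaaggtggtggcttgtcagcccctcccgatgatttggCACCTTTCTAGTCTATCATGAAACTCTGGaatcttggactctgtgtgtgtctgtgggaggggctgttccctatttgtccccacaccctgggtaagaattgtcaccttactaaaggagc
Gsta2: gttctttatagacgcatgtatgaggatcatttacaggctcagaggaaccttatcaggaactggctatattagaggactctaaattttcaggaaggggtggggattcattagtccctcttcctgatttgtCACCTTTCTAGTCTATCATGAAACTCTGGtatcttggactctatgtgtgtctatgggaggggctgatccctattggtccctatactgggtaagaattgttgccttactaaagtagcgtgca
Gsta3: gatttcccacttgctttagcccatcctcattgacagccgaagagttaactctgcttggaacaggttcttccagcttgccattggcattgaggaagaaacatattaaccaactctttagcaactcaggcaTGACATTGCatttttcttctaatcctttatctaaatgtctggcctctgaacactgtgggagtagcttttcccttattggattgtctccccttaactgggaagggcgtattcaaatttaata
Gstp1: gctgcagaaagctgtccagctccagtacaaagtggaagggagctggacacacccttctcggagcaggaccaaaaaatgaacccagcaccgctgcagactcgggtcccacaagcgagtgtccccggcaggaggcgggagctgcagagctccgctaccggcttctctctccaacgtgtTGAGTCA

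The windows of Gsta1 and Gsta2 were identical at 70.5% of the columns of a global alignment. Motifs were searched on both strands. TGACNNNGC was found in the Gsta3 window, from base 121 to base 113 before the start, and in 10.2% of all 32851 windows of this length. TGAGTCA was found in the Gstp1 window from base 74 to base 68 before the start and in 4.46% of all windows. Only TGACNNNGC was searched as the antioxidant response element, so a window without it may hold another spelling. The printed Gstp1 stretch ends at TGAGTCA, which the bases gc follow in the full window. There the letters TGAGTCAGC differ from TGACNNNGC only by G in place of its first C. The motifs therefore do not set Gsta3 apart from Gstp1. These matches are of letters only and were not tests of binding.

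Depth was read from the spacing of low values, which is the CPM of 1 read. On the listed genes it gave 6.69 to 9.84 M reads per FROZ library and 1.83 to 6.01 M per FFPE library. In 4 FFPE libraries, animals 49, 52 and 54 at 198 mg/kg-d and animal 73 at 313 mg/kg-d, over 15% of the listed genes were at 0. Values are log2(CPM + 1), scaled within each table, so a level in FROZ and a level in FFPE were not compared, nor were levels between genes, whose probes differ. In liver homogenate or sections, fewer cells of a type and less RNA per cell cannot be told apart.

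Sequence sharing limits some of the values. Of the distinct 50-base windows of annotated Gsta1 transcripts, 75.7% also occur in Gm3776, a neighbouring alpha class copy. Windows that occur in any other gene were 90.5% for Gsta1, 49.8% for Gsta2, 28.8% for Gstm3, 18.9% for Gstm1 and 5.65% for Gstm2. For Gsta3, Gsta4, Gstt1 and Gstt2 they were 0.377% or less. Whether the probes lie in such windows was not tested. The CPM of Gsta1 was 2.08 ± 0.000153 times that of Gm3776 (SD, n = 24) in FROZ, and both were at 0 in the same 5 FFPE libraries. Gstp1 shared 33.7% of its windows with Gstp2, and its CPM was 1.69 ± 0.00296 times that of Gstp2 in FROZ and 1.69 ± 0.00315 times in FFPE (SD, n = 24 each). The values of each pair moved as 1 quantity, and the members of a pair cannot be told apart here. Gm3776 and Gstp2 were picked for this comparison after their values were seen. Among all 136 pairs of alpha, mu, pi and theta genes above 0 throughout FROZ, with Gm3776 counted among them, these pairs had the narrowest ratios. Their log2 ratios spanned 0.000435 and 0.00868 over the 24 libraries.

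**Figure D1:**
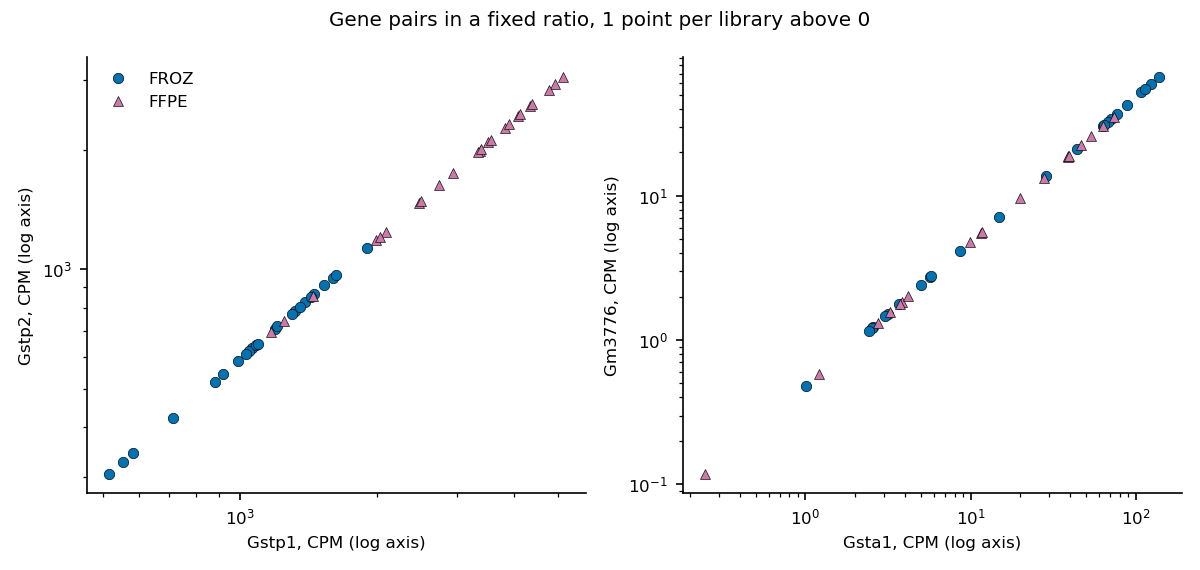
CPM of Gstp2 against Gstp1 (left) and of Gm3776 against Gsta1 (right) on log axes, 1 point per library with both genes above 0, circles for FROZ and triangles for FFPE. All points of a panel lie on 1 line, since the ratio was 1.69 in the left panel and 2.08 in the right panel in both preservations.

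In FROZ liver, DCA raised 5 members at 313 mg/kg-d and 6 at 427 mg/kg-d, and lowered 1 at 427 mg/kg-d. Those that rose at both doses were Gsta1, Gsta2, Gstm1, Gstm3 and Gstt2, joined at 427 mg/kg-d by Gstt1. The gene that fell was Gstp1. Gsta3, Gsta4 and Gstm2 did not pass at any single dose. A call is an FDR under 0.05 from limma over all genes of the table. At 198 mg/kg-d 1 of 10 members rose, Gsta1, where 1.12% of all genes tested rose. At 313 mg/kg-d the 5 of 10 stand against 20.5% of all genes that rose. At 427 mg/kg-d the 6 of 10 stand against 22.7% that rose, and the 1 of 10 against 7.33% that fell. The median log2 fold change of the members was 0.23, 0.66 and 1.01 at the 3 doses, and that of all FROZ genes 0.07, 0.11 and 0.10. Median-ratio scaling brings these medians of all genes to between -0.01 and 0.00. With it 5 members rose at each of the upper doses, Gstt1 no longer passing at 427 mg/kg-d. At each of these doses 1 fell, Gsta3 at 313 mg/kg-d and Gstp1 at 427 mg/kg-d. With this scaling 2381 of all 11275 genes were called at 313 mg/kg-d, 48.6% of them as higher. As deposited 3010 were called there, 77.0% of them as higher. At 427 mg/kg-d 2847 were called with this scaling, 50.0% of them as higher, against 3391 and 75.6% as deposited. The scaled member counts stand against these scaled calls, not against 20.5% and 22.7%.

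**Figure D2:**
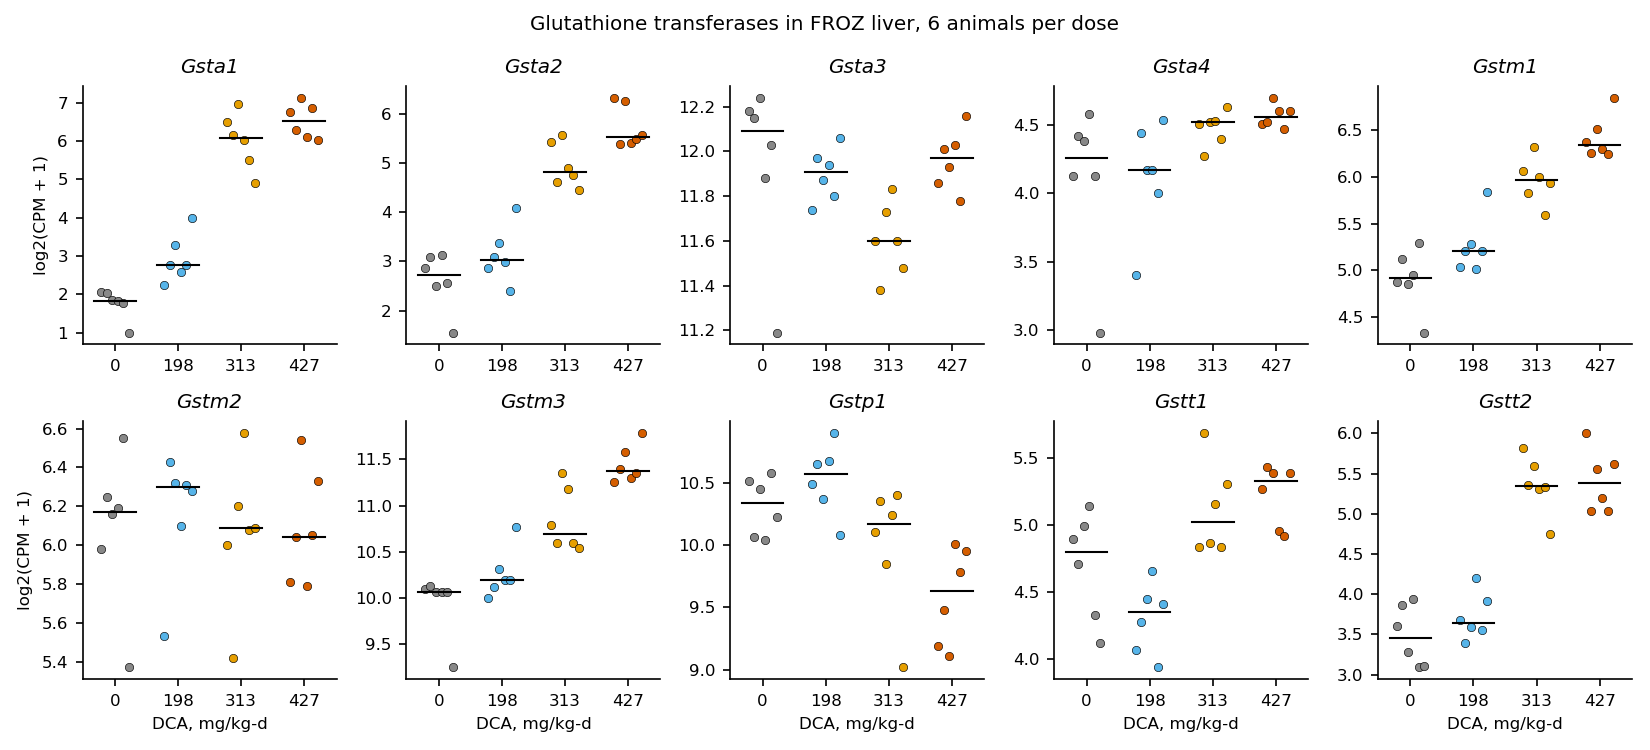
FROZ liver, log2(CPM + 1) of each of the 10 genes (vertical axis) by dose of DCA in mg/kg-d (horizontal axis, vehicle to 427), 1 point per animal with 6 per dose and a line at the median. Gsta1, Gsta2, Gstm1, Gstm3 and Gstt2 stood above all vehicle animals at 313 and 427 mg/kg-d, and Gstp1 below them at 427 mg/kg-d. The lowest vehicle point in 8 of the 10 panels is animal 8.

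Gsta1, an alpha class enzyme known for its induction by antioxidants, had the largest response of the 10. Its log2(CPM + 1) in FROZ ran from 1.00 to 2.06 in vehicle animals with a median of 1.83. At 198 mg/kg-d it ran from 2.23 to 3.99 (median 2.75), at 313 mg/kg-d from 4.90 to 6.96 (median 6.09) and at 427 mg/kg-d from 6.03 to 7.13 (median 6.53). All animals of each DCA group lay above all vehicle animals. The log2 fold change was 1.18 (SE 0.29, FDR = 0.0337) at 198 mg/kg-d, 4.25 (SE 0.29, FDR = 6.32e-11) at 313 mg/kg-d and 4.78 (SE 0.29, FDR = 2.53e-12) at 427 mg/kg-d, the last a fold of 27.4 on the CPM + 1 scale. The call at 198 mg/kg-d was lost without any 1 of 9 of the 12 libraries compared, with an FDR up to 0.0732, while those at the upper doses held without each library. Since Gm3776 moves with Gsta1, these values are of the pair.

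Gsta2, an alpha class relative of Gsta1 from the same region of the chromosome, rose at the upper doses. FROZ values were 1.56 to 3.13 (median 2.72) in vehicle animals, 2.40 to 4.08 (median 3.04) at 198 mg/kg-d, 4.44 to 5.56 (median 4.82) at 313 mg/kg-d and 5.39 to 6.32 (median 5.52) at 427 mg/kg-d. The groups at 0 and 198 mg/kg-d overlapped, and those at 313 and 427 mg/kg-d lay above all vehicle animals. Log2 fold changes were 2.33 (SE 0.26, FDR = 3.55e-07) and 3.11 (SE 0.26, FDR = 9.96e-10), the latter a fold of 8.65. Of its 50-base windows, 36.0% also occur in Gsta1, so the CPM of both genes were added in each library as well. The sum ran from 1.98 to 3.54 on the log2 scale in vehicle animals, from 5.66 to 7.41 at 313 mg/kg-d and from 6.78 to 7.75 at 427 mg/kg-d, without overlap.

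Gsta3, an abundant alpha class enzyme of mouse liver, did not pass at any dose in FROZ. Its values ran from 11.19 to 12.24 (median 12.09) in vehicle animals, from 11.38 to 11.83 (median 11.60) at 313 mg/kg-d and from 11.78 to 12.16 (median 11.97) at 427 mg/kg-d. The log2 fold change at 427 mg/kg-d was 0.02, with a 95% interval of -0.26 to 0.29. At 313 mg/kg-d it was -0.34 (SE 0.13, FDR = 0.0574). Animal 8 was the vehicle animal with the lowest Gsta3. Without it the log2 fold change was -0.49 (SE 0.10, FDR = 0.000706), and with median-ratio scaling it was -0.48 (FDR = 0.00733), both past the threshold. It also passed without animal 76 (FDR = 0.0428), among genes of at least 10 CPM (FDR = 0.0379) and with array quality weights (FDR = 0.0280).

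Gsta4, which acts on hydroxyalkenals formed by lipid peroxidation, had FROZ values of 2.98 to 4.58 (median 4.26) in vehicle animals and 4.47 to 4.70 (median 4.56) at 427 mg/kg-d. The groups overlapped, and the log2 fold change was 0.46 (SE 0.19, FDR = 0.0666, 95% interval 0.07 to 0.86). It passed without animal 4 or without animal 6 (FDR = 0.0324 for the latter). Its trend across the 4 doses passed, with a slope of 0.12 on the log2 scale per 100 mg/kg-d (SE 0.04, FDR = 0.0347). The trend was lost without animal 8 (slope 0.07, FDR = 0.135), which held the lowest vehicle value, without animal 99, 100 or 102 (FDR up to 0.0583), and with median-ratio scaling (FDR = 0.137).

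Gstm1, a mu class enzyme with broad substrate use, rose with dose. FROZ values were 4.33 to 5.29 (median 4.91) in vehicle animals, 5.01 to 5.84 (median 5.20) at 198 mg/kg-d, 5.59 to 6.32 (median 5.97) at 313 mg/kg-d and 6.25 to 6.85 (median 6.34) at 427 mg/kg-d. The upper groups did not overlap with vehicle. Log2 fold changes were 1.05 (SE 0.15, FDR = 7.82e-06) and 1.52 (SE 0.15, FDR = 1.14e-08).

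Gstm3, another mu class enzyme, also rose at the upper doses. Its FROZ values were 9.25 to 10.13 (median 10.07) in vehicle animals, a median of 10.20 and at most 10.77 at 198 mg/kg-d, 10.54 to 11.35 (median 10.69) at 313 mg/kg-d and 11.26 to 11.79 (median 11.37) at 427 mg/kg-d. Here 5 of the 6 vehicle animals lay between 10.06 and 10.13, and animal 8 at 9.25. Log2 fold changes were 0.89 (SE 0.16, FDR = 0.000128) and 1.50 (SE 0.16, FDR = 4.19e-08) at the upper doses, and both held without animal 8.

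Gstm2, the mu gene between Gstm3 and Gstm1 on the chromosome, did not pass at any dose. Vehicle values ran from 5.37 to 6.55 (median 6.17), and those at 427 mg/kg-d from 5.79 to 6.54 (median 6.04). The ranges overlapped almost wholly, and the log2 fold change was 0.01 with a 95% interval of -0.36 to 0.38.

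Gstp1, the pi class enzyme and a major transferase of male mouse liver, fell at the highest dose. FROZ values were 10.04 to 10.58 (median 10.34) in vehicle animals, 10.08 to 10.90 (median 10.57) at 198 mg/kg-d, 9.02 to 10.40 (median 10.17) at 313 mg/kg-d and 9.11 to 10.01 (median 9.63) at 427 mg/kg-d. All animals at 427 mg/kg-d lay below all vehicle animals, and the group at 313 mg/kg-d overlapped with vehicle. The log2 fold change was -0.72 (SE 0.19, FDR = 0.00537), a 1.65-fold lower value, and -0.32 (SE 0.19, FDR = 0.238) at 313 mg/kg-d. As Gstp2 moves with it in a fixed ratio, the fall is of the pair.

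Gstt2, a theta class enzyme, rose at the upper doses. Its FROZ values were 3.09 to 3.94 (median 3.45) in vehicle animals, 3.39 to 4.20 (median 3.64) at 198 mg/kg-d, 4.75 to 5.82 (median 5.34) at 313 mg/kg-d and 5.03 to 6.01 (median 5.38) at 427 mg/kg-d. The upper groups lay above all vehicle animals, with log2 fold changes of 1.88 (SE 0.19, FDR = 5.58e-08) and 1.93 (SE 0.19, FDR = 1.14e-08). The difference between 427 and 313 mg/kg-d was 0.05, with a 95% interval of -0.33 to 0.44.

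Gstt1, the theta class enzyme known for acting on small halogenated compounds, changed less. Values were 4.12 to 5.14 (median 4.80) in vehicle animals, 3.94 to 4.66 (median 4.35) at 198 mg/kg-d, 4.84 to 5.69 (median 5.02) at 313 mg/kg-d and 4.92 to 5.43 (median 5.33) at 427 mg/kg-d. Groups overlapped at every dose. Its log2 fold change at 427 mg/kg-d was 0.53 (SE 0.17, FDR = 0.0174), and it did not pass without animal 7 (FDR = 0.0507), without animal 8 (FDR = 0.0594) or with median-ratio scaling (FDR = 0.0799).

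Steps between doses were compared in the same FROZ fit. From 198 to 313 mg/kg-d 6 of 10 members rose, against 8.05% of all genes, namely Gsta1, Gsta2, Gstm1, Gstm3, Gstt1 and Gstt2. Gsta1 rose by 3.07 (SE 0.29) and Gstt2 by 1.64 (SE 0.19) on the log2 scale in this step. Gstt1 rose by 0.82 (SE 0.17, FDR = 0.00179), from a 198 mg/kg-d group whose median was below that of vehicle. The step of Gstm3, 0.57 (FDR = 0.0173), was lost without animal 49 (FDR = 0.0508) or animal 75 (FDR = 0.0561). From 313 to 427 mg/kg-d 1 of 10 rose, Gstm3, against 1.73% of all genes. Its step of 0.61 (SE 0.16, FDR = 0.0333) was lost without animal 74, 77, 78, 99 or 102, with an FDR up to 0.0830. Across the 4 doses the trend passed for 8 of 10 members in FROZ, 7 upward and Gstp1 downward, against 32.2% of all genes. Without animal 8 it passed for 6, with Gsta4 and Gstt1 (FDR = 0.0552) lost. The slope of Gsta1 was 1.22 (SE 0.10) per 100 mg/kg-d, that of Gstt2 0.51 (SE 0.06) and that of Gstp1 -0.17 (SE 0.05).

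Groups that do not overlap were counted apart from the fit. At 313 mg/kg-d 5 of 10 members in FROZ lay wholly above vehicle, where 11.5% of all genes did not overlap in either direction. At 427 mg/kg-d 5 lay wholly above and 1 wholly below, against 14.7% of all genes.

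In FFPE liver 2 of 9 members rose at 313 mg/kg-d, against 0.764% of all genes, and 5 of 9 rose at 427 mg/kg-d, against 1.54%. The 1 member that fell at 427 mg/kg-d stands against 0.869% of all genes. Gstm3 and Gstt2 rose at both doses, Gsta1, Gsta2 and Gstm1 at 427 mg/kg-d, and Gstp1 fell at 427 mg/kg-d. Limma called 0 of 9 members and 0.0300% of all genes as higher at 198 mg/kg-d, while 2 of 9, Gsta2 and Gstm3, had an unadjusted p under 0.05, as did 785 of all 6673 genes. The members' median log2 fold changes were 0.21, 0.74 and 1.60, and those of all FFPE genes -0.19, -0.12 and 0.18. Wholly above vehicle were 2 of 9 members at 313 mg/kg-d, where 1.57% of all genes did not overlap. At 427 mg/kg-d 5 lay above and 1 below, against 4.48%. The FFPE trend passed for 5 of 9 members, Gsta1, Gsta2, Gstm3, Gstt2 and Gstp1, against 2.17% of all genes. That of Gsta2 (slope 0.80, FDR = 0.0392) was lost without any 1 of 11 of the 24 animals. Genes were kept by their mean count over all samples, so a gene at 0 in vehicle libraries could be listed through its DCA groups. Gsta1 was at 0 in 4 vehicle libraries and Gsta2 in 3. Both enter the counts and medians above, which are therefore not independent of the listing.

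**Figure D3:**
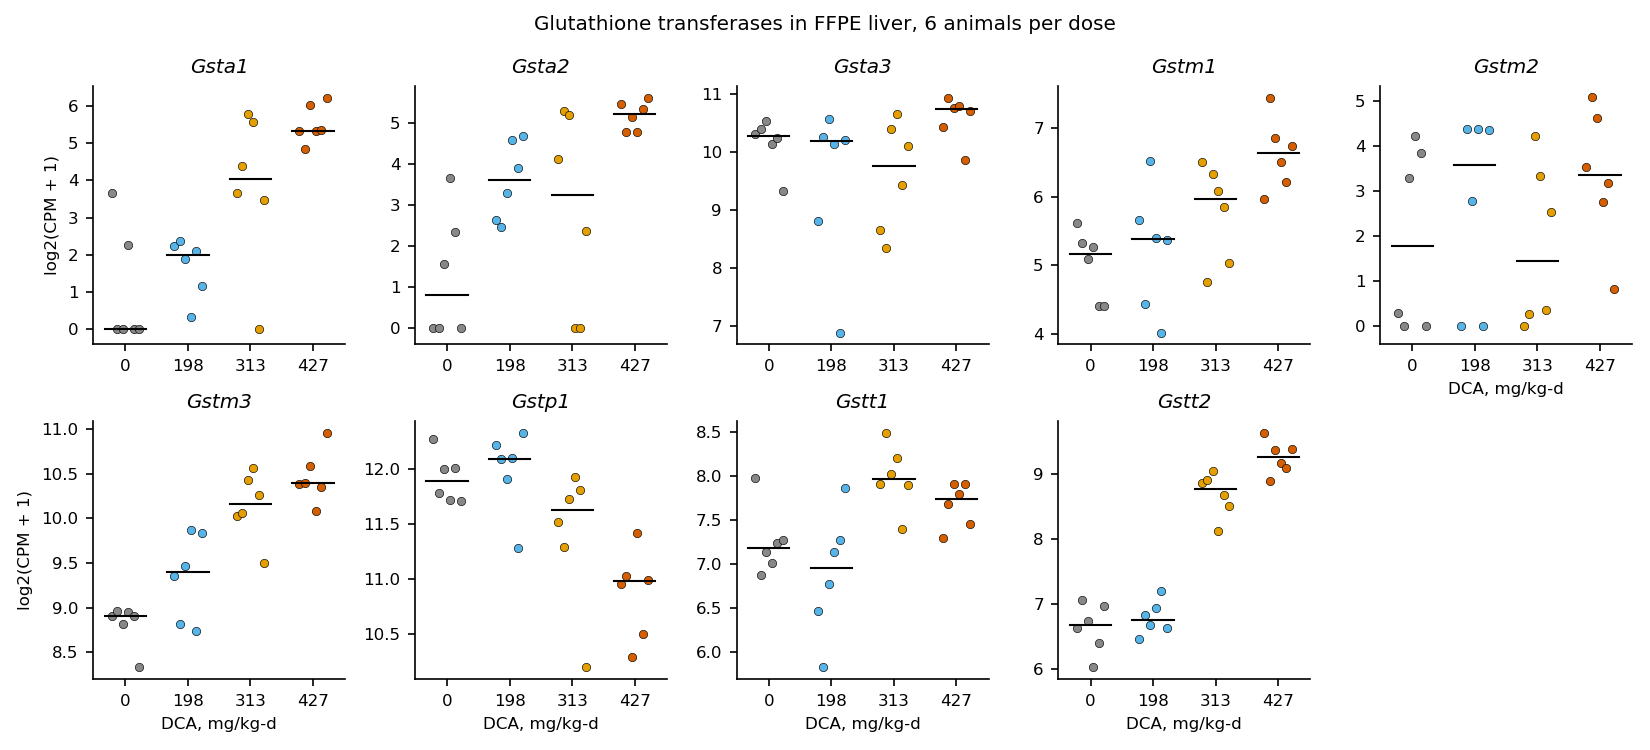
FFPE liver, log2(CPM + 1) of the 9 listed genes (vertical axis) by dose of DCA in mg/kg-d (horizontal axis, vehicle to 427), 1 point per animal with 6 per dose and a line at the median. Gstm3 and Gstt2 stood above all vehicle animals at 313 and 427 mg/kg-d, and points at 0 for Gsta1, Gsta2 and Gstm2 are libraries where the gene is listed at 0.

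Gsta1 in the 6 vehicle FFPE libraries was listed at 0 in 4, at 3.65 in animal 3 and at 2.27 in animal 6. At 313 mg/kg-d it was listed at 0 in animal 77 and ran from 3.46 to 5.78 in the other animals, and at 427 mg/kg-d it ran from 4.85 to 6.22. All 6 libraries at 427 mg/kg-d lay above all vehicle libraries. The fitted log2 fold change at 427 mg/kg-d was 4.52 (SE 0.88, FDR = 0.00149) and depends on the offset, since most vehicle libraries are at 0. With an offset of 0.1 it was 6.77 (FDR = 0.00759). At 313 mg/kg-d it was 2.83 (SE 0.88, FDR = 0.131), and without animal 77 it was 3.59 (FDR = 0.0187).

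Gsta2 was listed at 0 in 3 vehicle FFPE libraries, animals 3, 4 and 8, and at 1.57, 3.65 and 2.35 in animals 5, 6 and 7. At 198 mg/kg-d it ran from 2.45 to 4.67, and at 313 mg/kg-d it was at 0 in animals 76 and 77 and ran from 2.37 to 5.29 in the other 4. At 427 mg/kg-d it ran from 4.79 to 5.62, above all vehicle libraries, with a fitted log2 fold change of 3.93 (SE 0.93, FDR = 0.0123). This too depends on the offset and was 5.70 (FDR = 0.0484) with an offset of 0.1. A listing at 0 allows up to 3 reads, which is 0.499 to 1.64 CPM across the FFPE libraries. The summed CPM of Gsta1 and Gsta2 was at 0 in 2 vehicle libraries and in 1 at 313 mg/kg-d. The sum reached at most 4.03 on the log2 scale in vehicle libraries and was at least 5.79 at 427 mg/kg-d.

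Gsta3 in FFPE ran from 9.33 to 10.53 (median 10.27) in vehicle animals and from 9.86 to 10.93 (median 10.73) at 427 mg/kg-d, with overlap. Its log2 fold change there was 0.42, with a 95% interval of -0.45 to 1.30. At 198 mg/kg-d 1 library, animal 53, stood at 6.89 against a median of 10.18.

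Gstm1 in FFPE ran from 4.40 to 5.62 (median 5.17) in vehicle animals and from 5.96 to 7.44 (median 6.63) at 427 mg/kg-d, without overlap. The log2 fold change was 1.60 (SE 0.44, FDR = 0.0451). This call was lost without any 1 of 11 of the 12 libraries compared, with log2 fold changes between 1.44 and 1.73 and an FDR up to 0.159. It was also lost with an offset of 0.1 (FDR = 0.0554) and with median-ratio scaling (FDR = 0.0576).

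Gstm3 in FFPE ran from 8.33 to 8.96 (median 8.91) in vehicle animals, from 9.50 to 10.56 (median 10.16) at 313 mg/kg-d and from 10.08 to 10.96 (median 10.39) at 427 mg/kg-d. Neither upper group overlapped with vehicle. Log2 fold changes were 1.33 (SE 0.21, FDR = 0.000114) and 1.65 (SE 0.21, FDR = 1.39e-06). Gstm2 was listed at 0 in 5 FFPE libraries, animals 4 and 8 of the vehicle group, 49 and 53 at 198 mg/kg-d and 73 at 313 mg/kg-d. Its vehicle values in animals 3, 5, 6 and 7 were 0.29, 3.29, 4.23 and 3.85, those at 427 mg/kg-d ran from 0.83 to 5.08, and it did not pass at any dose.

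Gstp1 in FFPE ran from 11.71 to 12.27 (median 11.89) in vehicle animals, from 10.20 to 11.93 (median 11.63) at 313 mg/kg-d and from 10.29 to 11.42 (median 10.98) at 427 mg/kg-d. The highest dose lay wholly below vehicle. The log2 fold change was -1.05 (SE 0.23, FDR = 0.00629), a 2.07-fold lower value, and it missed the threshold with a variance prior that does not follow the mean (FDR = 0.0889).

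Gstt2 in FFPE ran from 6.02 to 7.06 (median 6.68) in vehicle animals, from 8.12 to 9.05 (median 8.77) at 313 mg/kg-d and from 8.89 to 9.64 (median 9.27) at 427 mg/kg-d. It had the smallest FDR of the members in this table. Log2 fold changes were 2.05 (SE 0.22, FDR = 1.41e-07) and 2.63 (SE 0.22, FDR = 2.99e-10). Gstt1 ran from 6.87 to 7.97 (median 7.18) in vehicle animals and from 7.29 to 7.91 (median 7.74) at 427 mg/kg-d, and its log2 fold change of 0.42 had a 95% interval of -0.14 to 0.99.

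The responses in FFPE and FROZ were compared within animals, with limma fitted to each animal's FFPE value less its FROZ value, over the 6591 genes of both tables. For 0 of 9 members was a difference in response called at 198, 313 or 427 mg/kg-d, where 0.0303%, 0% and 0.0303% of all genes were called. At an unadjusted p under 0.05 there was 1 member at 198 mg/kg-d (Gsta2), 0 at 313 mg/kg-d and 1 at 427 mg/kg-d (Gstt2), where 750, 487 and 146 of all 6591 genes were under it. Gstt2 at 427 mg/kg-d had a log2 response 0.70 larger in FFPE (SE 0.26, FDR = 1.00), with a 95% interval of 0.17 to 1.23. For Gstm3 the difference was 0.15 (95% interval -0.34 to 0.64) and for Gstp1 -0.32 (95% interval -0.89 to 0.24). For Gsta1 it was -0.25 with an interval of -1.81 to 1.30, so a difference of 1 log2 unit in either direction lies within it. The intervals of Gsta2, -0.86 to 2.49, and Gstm2, -0.65 to 3.42, were wider still. A member that was not called can therefore still differ in response.

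**Figure D4:**
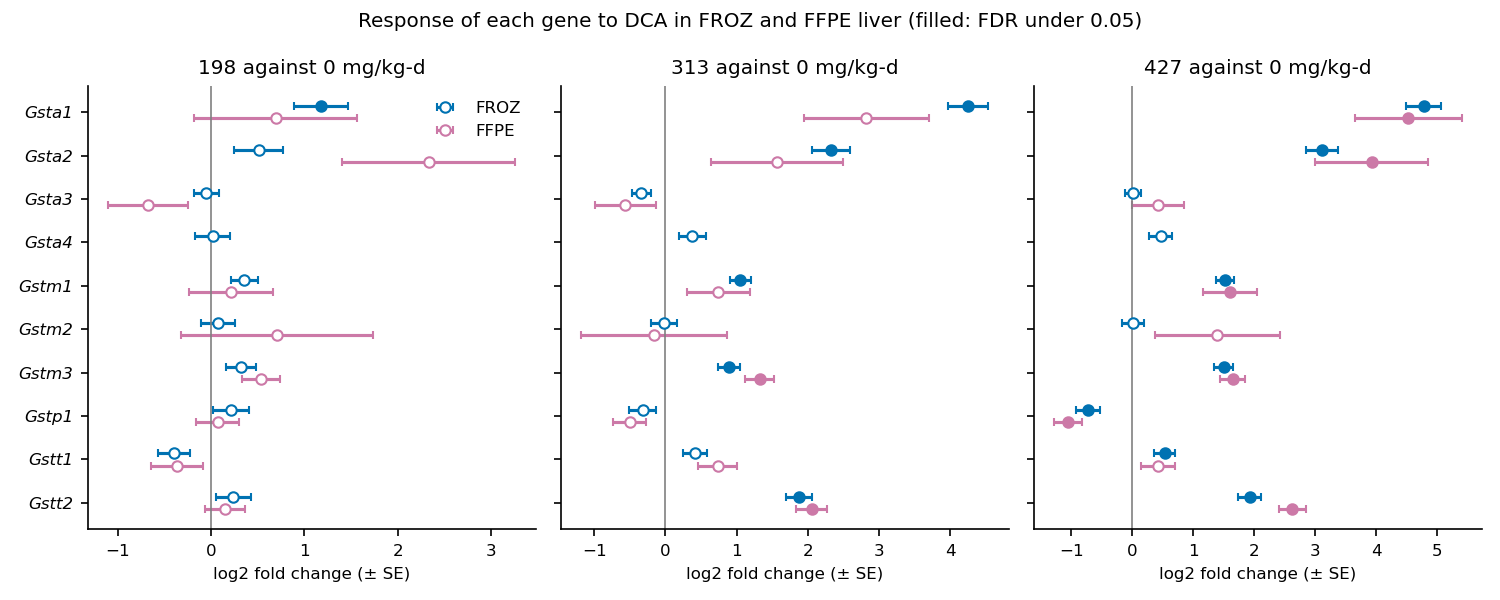
Log2 fold change against vehicle (horizontal axis, point ± SE from limma, n = 6 against 6) of each gene at 198, 313 and 427 mg/kg-d, FROZ in blue and FFPE in pink, filled where the FDR was under 0.05. At 427 mg/kg-d Gsta1, Gsta2, Gstm1, Gstm3 and Gstt2 are filled to the right and Gstp1 to the left of 0 in both preservations.

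The 2 libraries of an animal were also compared after removing the dose means. Pearson's r between the FROZ and FFPE deviations of the 24 animals was 0.70 for Gstm3 (adjusted p = 0.000945) and 0.51 for Gsta3 (adjusted p = 0.000945), from 100000 permutations within doses, two-sided, adjusted over the 9 genes. Spearman's rho was 0.71 (adjusted p = 0.00315) and 0.58 (adjusted p = 0.00688). Without the 2 animals farthest out in FROZ, 8 and 75 for Gstm3 and 8 and 5 for Gsta3, r was 0.66 and 0.56. The other 7 genes did not pass, with r from 0.17 for Gstt1 to 0.51 for Gstp1. The share of all genes with such an r was not computed, so the 2 genes that passed cannot be set against it. The r of Gstp1 fell to 0.05 without animals 78 and 99, so it rests on those animals. Animal 78, at 313 mg/kg-d, had the lowest Gstp1 of its group in FROZ (9.02) and in FFPE (10.20).

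**Figure D5:**
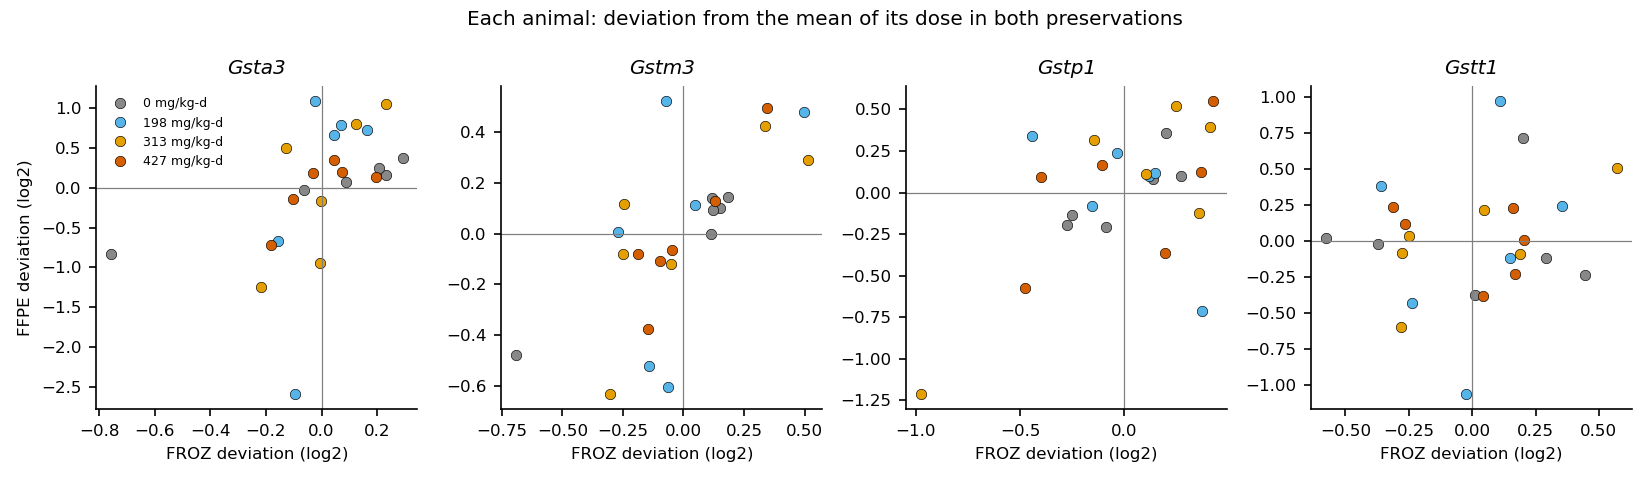
Deviation of each of the 24 animals from the mean of its dose, FROZ on the horizontal and FFPE on the vertical axis (log2), coloured by dose. Gsta3 and Gstm3 had an r of 0.51 and 0.70, while that of Gstp1 rests on animals 78, at the lower left, and 99, and Gstt1 had an r of 0.17.

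Animal 8 of the vehicle group had the lowest FROZ value for 8 of 10 members, all but Gstp1 and Gstt2. It lay 0.90 below the mean of the other 5 vehicle animals for Gsta1, 0.91 for Gsta3, 1.35 for Gsta4 and 0.83 for Gstm3, where the median over all FROZ genes was 0.08 below. In FFPE the same animal alone was lowest for Gsta3, Gstm3 and Gstp1, and it lay 0.99 below the mean of the others for Gsta3 and 0.58 for Gstm3. The calls of the 5 genes that rose at both upper doses in FROZ held without it.

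Other glutathione transferases and related lists were counted in the same fits. Each count in FROZ at 427 mg/kg-d stands against the 22.7% of all genes that rose and the 7.33% that fell, and each in FFPE against 1.54% and 0.869%. Of 14 other transferases listed in FROZ, 5 rose and 1 fell at 427 mg/kg-d, with a median log2 fold change of 0.19. The 1 that fell was Gstp2, so this is the fall of Gstp1 counted again. Gstt3, another theta gene, rose by 1.36 (SE 0.18, FDR = 2.34e-06), Gstm4 of the mu cluster by 1.35 (SE 0.21, FDR = 1.78e-05) and the mitochondrial and peroxisomal Gstk1 by 0.81 (SE 0.14, FDR = 8.59e-05). In FFPE 1 of 8 listed passed, Gstp2, which moves with Gstp1.

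Genes around glutathione and genes that handle its conjugates were also followed. Of 16 genes listed in FROZ under glutathione synthesis and recycling, 7 rose and 2 fell at 427 mg/kg-d. That list is broader than its name, as Txnrd1 acts on thioredoxin and Gpx4 uses glutathione. The thioredoxin reductase Txnrd1 rose by 0.88 (SE 0.10, FDR = 1.57e-07), the 5-oxoprolinase Oplah by 1.06 (SE 0.14, FDR = 1.74e-06) and Gpx4, which reduces lipid hydroperoxides, by 0.84 (SE 0.15, FDR = 0.000125). The dipeptidases Cndp2 and Dpep1 fell by 0.41 (SE 0.09) and 0.47 (SE 0.13). In FFPE 1 of 13 passed, Cth, which makes cysteine and rose by 0.82 (SE 0.19, FDR = 0.0123). Of the genes for export and further processing of conjugates, 2 of 9 rose in FROZ, a share near that of all genes, and 2 of 7 in FFPE, in both cases the efflux pumps Abcc3 and Abcc2. Abcc3 rose by 1.74 (SE 0.22) in FROZ and 1.81 (SE 0.32) in FFPE, and Abcc2 by 1.08 (SE 0.14) and 1.48 (SE 0.29).

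Among Nrf2 targets outside the family, 13 of 16 rose in FROZ at 427 mg/kg-d with a median log2 fold change of 0.66, and 3 of 9 rose in FFPE. Ephx1, an epoxide hydrolase, rose by 2.04 (SE 0.18, FDR = 2.80e-09) in FROZ and 2.24 (SE 0.26, FDR = 3.29e-07) in FFPE. The malic enzyme Me1 rose by 2.08 (SE 0.19, FDR = 3.53e-09) and Srxn1, which repairs peroxiredoxins, by 1.58 (SE 0.18, FDR = 1.77e-07) in FROZ. Of 15 regulators in FROZ, 8 rose and 1 fell. Nfe2l2, which encodes Nrf2, rose by 1.54 (SE 0.16, FDR = 3.10e-08), and its inhibitor Keap1 by 0.28 (SE 0.06, FDR = 0.00143). The receptor gene Nr1i3 (CAR) rose by 0.59 (SE 0.14, FDR = 0.00246) in FROZ and by 1.41 (SE 0.34, FDR = 0.0136) in FFPE, the only 1 of 14 regulators to pass there. Stat5b, a mediator of growth hormone, fell by 0.65 (SE 0.14, FDR = 0.000909) in FROZ.

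Targets of other inducing receptors were counted as well. Of 9 CAR and PXR targets outside the family in FROZ, 3 rose and 2 fell at 427 mg/kg-d, Cyp2b9 rising by 4.71 (SE 0.39, FDR = 7.31e-10) and the carboxylesterase Ces2a falling by 1.32 on the log2 scale (SE 0.15, FDR = 2.50e-07). In FFPE none of 5 passed the limma test. Of 11 PPAR alpha targets in FROZ 10 rose and of 7 in FFPE 7 rose, Cyp4a14, a fatty acid omega-hydroxylase, by 8.70 (SE 0.35) and 8.77 (SE 0.64). At 313 mg/kg-d in FROZ 13 of 16 Nrf2 targets, 9 of 11 PPAR alpha targets and 2 of 9 CAR and PXR targets rose, against 20.5% of all genes. Of the 9 CAR and PXR targets 4 fell at this dose, and their median log2 fold change was -0.53. Of all 11275 genes 3010 were called there, 2317 of them as higher. At 198 mg/kg-d none of the targets in these 3 lists passed.

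Cell type markers were measured beside these changes. All 6 hepatocyte markers were listed in both tables, and their summed CPM in FROZ ran from 30166 to 38766 in vehicle animals and from 26798 to 31852 at 427 mg/kg-d. None of the 6 passed singly at that dose in FROZ. In FFPE the sum ran from 37971 to 51921 and from 27020 to 31492, and 2 of 6 fell. Of 4 listed Kupffer cell markers in FROZ 2 fell at 427 mg/kg-d, and their sum ran from 50.4 to 80.9 CPM and from 42.3 to 59.0 CPM, with Timd4 and Marco not listed. The sum of the 3 listed cholangiocyte markers in FROZ, 32.9 to 45.0 CPM in vehicle animals and 29.9 to 46.9 CPM at 427 mg/kg-d, overlapped, with Epcam, Sox9 and Cftr not listed. The 6 endothelial markers summed to 140.5 to 166 CPM in vehicle animals, 116 to 142 CPM at 313 mg/kg-d and 119 to 143 CPM at 427 mg/kg-d in FROZ, and 1 of 6 fell at each of these doses. Pericentral hepatocyte markers in FROZ summed to 9263 to 13133 CPM in vehicle animals. At 313 mg/kg-d their sum was 7211 to 9073 CPM and 5 of 7 fell. At 427 mg/kg-d it was 8708 to 10608 CPM and 2 of 7 fell. The 6 periportal markers in FROZ summed to 2272 to 3066 CPM in vehicle animals. Their sum was 2058 to 2517 CPM at 313 mg/kg-d and 2261 to 3021 CPM at 427 mg/kg-d, and 1 of 6 fell at each. In FFPE none of the 6 listed pericentral and none of the 6 periportal markers passed at these 2 doses. Of all 11275 FROZ genes 3010 were called at 313 mg/kg-d, 2317 of them as higher, and 7.33% fell at 427 mg/kg-d. The part of these shifts in the changes of the transferases was not tested.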

How the data were processed

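TempO-Seq was measured in 48 mouse liver libraries, 1 FROZ and 1 FFPE from each of 24 animals. The deposited values are log2(CPM + 1) per gene, made by the authors. Per the study's methods, reads were aligned to mm10 with STAR (2.6 in the submitters' processing notes) in Partek Flow and counted on RefSeq transcripts by expectation maximization, so reads of near-identical genes are split by rule. Genes with a low geometric mean count over all samples, whatever the treatment, were removed and counts scaled to CPM within each table. The most abundant probes were attenuated in the assay, and none of these is a probe of the 10 genes. All columns were mapped to samples.

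Log2 values were fitted per table with limma 3.58.1 in R 4.3.3, over the 24 libraries with dose as a factor, a variance prior that follows the mean, two-sided, with Benjamini-Hochberg adjustment (FDR) over all genes; trends used dose as a number. FFPE and FROZ responses were compared on the difference within each animal. The animal numbers pair the libraries: deviations over 4815 genes had a median r of 0.128 within animals and -0.0232 between them. Fits were tested on simulated data, where most of the changed genes were recovered in FROZ and most were missed in FFPE. A gene that was not called in FFPE can therefore still have changed.

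Reads per library came from the spacing of low CPM values, where 96.4 to 97.5% of FROZ values and 91.3 to 96.0% of FFPE values lay within 0.1 of a whole read. Floors of 3 reads cover counting error only, as reads carry no molecular identifiers. Promoter windows were taken from RefSeq and aligned with Biopython 1.88, and shared 50-base windows were counted over GENCODE transcripts. All 10 genes are named, and from other lists up to 3 genes per direction and table with the smallest FDR at 427 mg/kg-d, and any regulator. The members and lists were chosen with earlier results of these data known. The p-values measure the spread between single animals. Alternatives tried were another offset, a filter of 10 CPM, median-ratio scaling, another variance prior, array weights, fewer libraries and leaving out each animal.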

Additional observations from a re-analysis of the deposited data

Results flagged for a closer look

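Each of 76 sets of 6 animals (a gene, a preservation and a dose) was searched for 1 animal whose gap to its nearest neighbour was over 0.625 of the range. In 10 sets there was one. Chance gives about 1 in 20 for independent sets, but these share animals, paired libraries and related genes. The 10 sets can therefore not be set against that rate. In 6 of the 10 it was animal 8, a vehicle animal with low values. In FROZ it stood apart at 1.00 for Gsta1, 11.19 for Gsta3, 2.98 for Gsta4 and 9.25 for Gstm3, and in FFPE at 9.33 for Gsta3 and 8.33 for Gstm3. At 198 mg/kg-d in FROZ, animal 54 was highest for Gstm1 at 5.84 and animal 49 lowest for Gstm2 at 5.53. In FFPE, animal 78 was lowest for Gstp1 at 313 mg/kg-d, at 10.20, and animal 3 was highest for Gstt1 in the vehicle group, at 7.97.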

How the results depend on the processing

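Of the values of single genes under the alternatives, 2417 kept their side of the threshold, 54 dropped below it and 26 passed it anew, and the cause was not tested. None past the threshold changed sign, while values near 0 that were not called could, such as Gsta3 in FROZ at 427 mg/kg-d, from -0.14 to 0.07. The number of members called in FROZ at 198 mg/kg-d was 0 with a variance prior that does not follow the mean, and 2 between 427 and 313 mg/kg-d with array quality weights. Leaving out 1 animal at a time gave 0 to 1 members at 198 mg/kg-d and 0 to 1 between 427 and 313 mg/kg-d in FROZ. It gave 5 to 6 at 313 and 6 to 8 at 427 mg/kg-d in FROZ, and 2 to 3 and 5 to 6 in FFPE. Without the replicate block of the animal, 0, 0 and 0 members were called as differing in response between preservations, as with it. Counts over all genes moved more. FROZ at 198 mg/kg-d had 176 genes, 299 with the 10 CPM filter, 100 with the other prior and 88 from the libraries of the 2 groups alone. FFPE at 198 mg/kg-d had 4, 7 with the filter and 1 without the 4 shallow libraries. FFPE at 313 mg/kg-d had 72, and 35 with the other prior. FFPE at 427 mg/kg-d had 161, 94 with the other prior, 524 with weights and 427 from the 2 groups alone, and the FFPE trend 145, 86 with the other prior and 512 with weights. Differences between preservations at 427 mg/kg-d numbered 2, and 12 with weights. The share of FROZ calls that were higher was 71.6%, 77.0% and 75.6% at the 3 doses, against 23.4%, 48.6% and 50.0% with median-ratio scaling, 68.8% against 52.0% from 198 to 313 mg/kg-d, and 64.0% against 52.1% in FFPE at 427 mg/kg-d. Single animals moved counts over all genes too. FROZ at 198 mg/kg-d had 113, 81, 103, 78, 54 and 51 genes without animals 3, 4, 5, 6, 52 and 53. From 198 to 313 mg/kg-d it had 1319, and 836 without animal 74, and from 313 to 427 mg/kg-d 346, with 187 and 229 without animals 99 and 101. FFPE at 198 mg/kg-d had 40 genes without animal 50 and 2 without animal 5, 6, 52, 53 or 54, and at 313 mg/kg-d 126 without animal 78. Differences between preservations at 198 mg/kg-d numbered 2, 10 without animal 50, 5 without animal 51 and 0 or 1 without each other animal. Depth limits Gsta1, Gsta2 and Gstm2 in FFPE, where 3 reads are 0.499 to 1.64 CPM.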
